A study of Mus musculus with 2 samples.

Results

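Histone modifiers and nuclear receptor coregulators were described in liver RNA of male 129SvEJ mice, 8 weeks old, that ate chow with 0.2% fenofibrate for 7 days. The pparalpha -/- mice, called null below, lack the receptor PPARα (gene Ppara), and the wild-type mice carry it. Each genotype is 1 pool of RNA from 3 mice on 1 Affymetrix array, so the study has 2 arrays and 1 sample per genotype. Both groups received the drug, and how the Ppara allele was made is not given in the labels. With 1 array of pooled RNA per genotype there is no replicate check, and no test, standard error or p-value could be had.

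The members were chosen by gene symbol: Kdm, Kmt, Kat, Hdac, Ncoa, Ncor or Setd followed by a digit. These families were picked with earlier results of these arrays known, so every value below is a description. They comprised 60 of 18193 named genes, read by 153 of 45101 probe sets. By family there were 18 Kdm genes, 16 Kmt and Setd genes, 8 Kat genes, 11 Hdac genes and 7 Ncoa genes. Ncor genes were not analysed here. A further probe set that carries 2 gene symbols was kept out of all gene values.

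Histone tails carry acetyl and methyl groups that enzymes add and remove, and these marks are linked to whether a gene is read. Kat enzymes add acetyl groups to lysines and Hdac enzymes remove them, while Kmt and most Setd enzymes add methyl groups and Kdm enzymes remove them. PPARα is a nuclear receptor of hepatocytes that fenofibrate activates. A nuclear receptor without an activating ligand can bind corepressor complexes that hold HDAC3, and one with such a ligand recruits coactivators such as those of the Ncoa family.

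Signals are in the deposited units, a linear scale on which each array was set to a target of 1000. The median signal of an array served as its floor, at 269.4 in null and 287.8 in wild type, and lower signals were raised to it. A probe set or gene at or above the floors of both arrays is called measured. Ratios are null over wild type. A gene with several probe sets was represented by the one whose log2 signal, averaged over the arrays, was highest. Of the 60 genes, 53 were at or above the floor on both arrays, 1 in null only, 3 in wild type only and 3 on neither.

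Of the 53 member genes on both arrays, 5 (9.43%) were at least 2-fold higher in null, namely Kdm6a, Kdm7a, Kdm6b, Kdm4a and Kat6a, where 2.24% of all named genes on both arrays were. In the other direction, 3 (5.66%) were at least 2-fold lower, namely Hdac10, Hdac11 and Ncoa5, where 3.61% of all named genes were. The members' median log2 ratio was 0.24, against 0.02 for all 10060 named genes on both arrays. The demethylases had the highest family median (0.64) and the deacetylases the lowest (-0.19), with 1 representative probe set per gene. Between them lay the coactivators (0.45), the acetyltransferases (0.26) and the methyltransferases (0.15). Over all measured probe sets the coactivators were highest (0.44) and the demethylases were at 0.32. At 1.5-fold, 12 members were higher and 4 lower, where 10.2% and 11.5% of all named genes on both arrays passed.

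**Figure D1:**
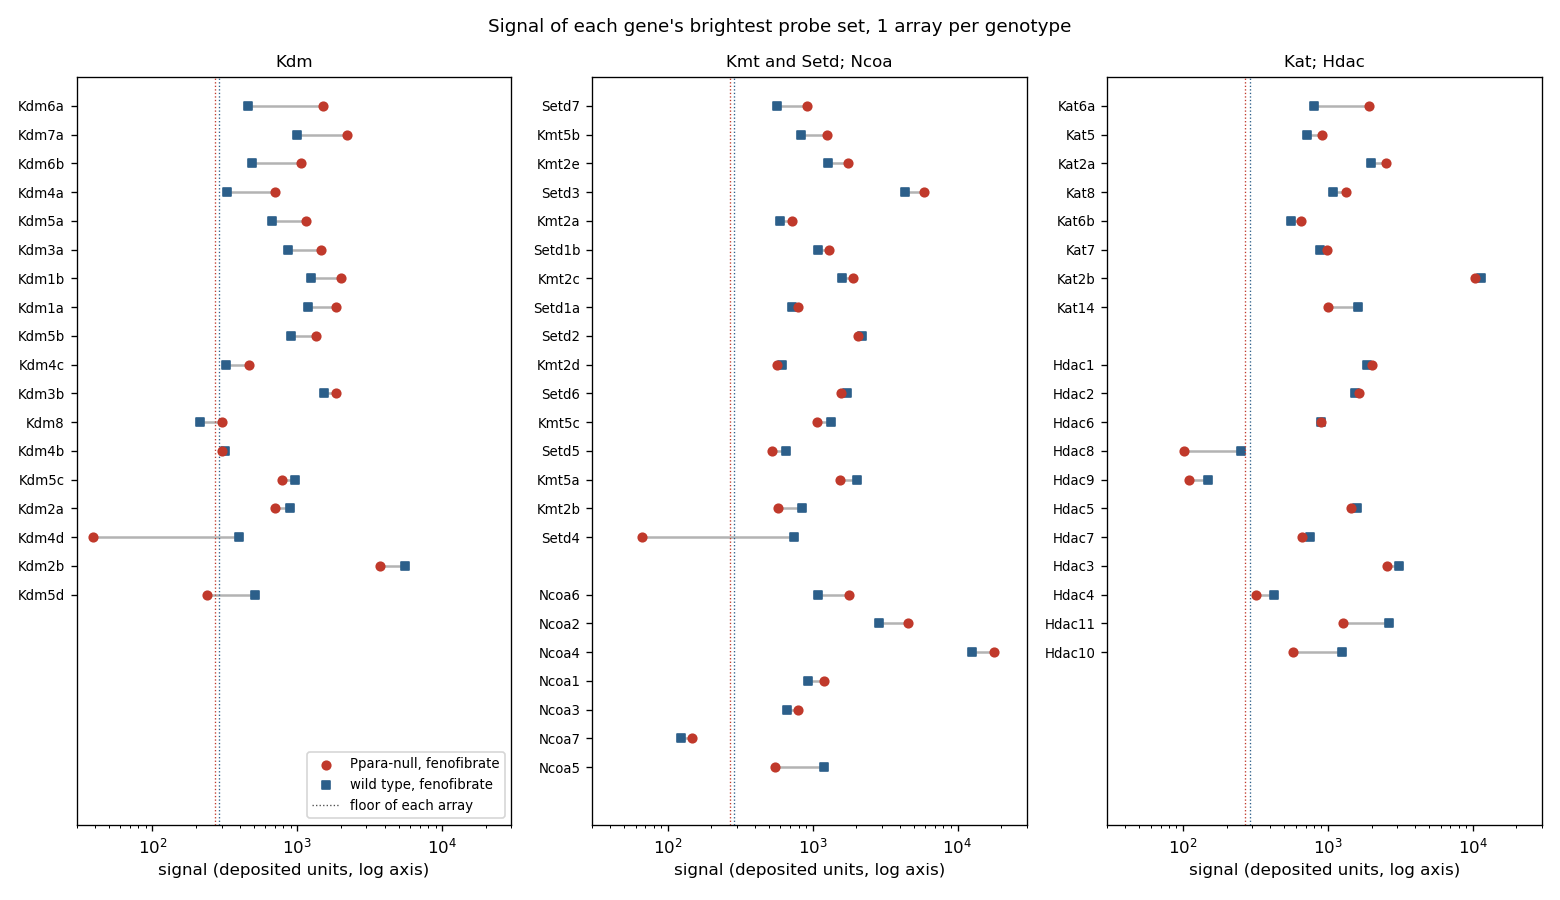
Signal of the representative probe set of each of the 60 genes on the null array (red circles) and the wild-type array (blue squares), on a log axis in deposited units, with dotted lines at the floors of 269.4 and 287.8. The red circle lies to the right for 11 of the 15 Kdm genes above both floors and to the left for 7 of the 9 Hdac genes above both floors.

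The arrays themselves differed in ways that touch these ratios. All 18 hybridization control probe sets, which read labelled RNA added to the hybridization mix, were higher in null, with a median log2 ratio of 0.38. Scaling the arrays to these controls moved the median of all named genes to -0.36, so directions below are those of the deposited scaling. Signal ratios of 3′ over 5′ probe sets, a sign of RNA integrity, were 0.741 in null and 0.679 in wild type for Gapdh, 2.27 and 1.89 for beta-actin, and 5.2 and 3.76 for pyruvate carboxylase. Hepatocyte markers were abundant on both arrays, with Alb at 212369.1 in null and 192641.8 in wild type. The 3 Kupffer cell markers above both floors (of 5 listed) were all higher in null, with a summed signal over the 5 genes of 14381.2 in null and 10905.3 in wild type. The 4 stellate cell markers summed to 7518.1 in null and 5563.3 in wild type, with 2 of 3 measured genes higher, and the 4 endothelial markers to 5943 and 5104.7, also with 2 of 3 higher. Pecam1, the other endothelial marker, was above the floor in wild type only (228.0 in null, 636.9 in wild type), at least 2.36-fold lower. Cd68 was also above the floor in wild type only (204.3 in null, 373.5 in wild type). Of the lymphocyte list 2 of 3 genes were named, with a sum of 481.5 in null and 1072.3 in wild type, mostly from Ptprc. The 3 cholangiocyte markers summed to 924.7 in null and 468.8 in wild type, each under at least 1 floor, and the 1 named erythroid marker gave 250.8 and 332.6. Col1a1, Marco, Krt7 and Cd3e lay under the floor on both arrays. The part of RNA integrity or of cell makeup in the ratios below was not tested, and in whole liver a change in the number of cells of a type cannot be told apart from a change in RNA per cell.

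The targeted gene and 3 known targets of PPARα were lower in null. Ppara gave 3414.3 in null against 7957.0 in wild type at its representative probe set, 2.33-fold lower, and its 2 other probe sets were 1.98-fold and 2.78-fold lower. The labels do not place the disrupted part of the gene, so these probe sets need not lie in it. Of the targets, Cyp4a14 gave 44.0 in null against 104678.8 in wild type, Acot1 gave 3610.3 against 18826.3 and Pdk4 gave 623.0 against 2370.3. The largest ratio among the member genes on both arrays, 3.27-fold for Kdm6a, was below those of Acot1 (5.21-fold) and Pdk4 (3.80-fold).

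Demethylases, the erasers of lysine methylation, leaned towards null. Of the 15 Kdm genes on both arrays, 11 (73.3%) had a log2 ratio above 0, where 52.2% of all named genes did, and 4 (26.7%) were at least 2-fold higher, with 0 at least 2-fold lower. The family's log2 ratios ran from -0.57 to 1.71 with an SD of 0.64 across genes. Over all 24 measured Kdm probe sets the median was 0.32, beside 0.44 for Ncoa, 0.25 for Kat, 0.24 for Kmt and Setd, -0.19 for Hdac and 0.25 for all members. The representative probe sets of Kdm6a, Kdm6b and Kdm7a had the highest ratio among the measured ones of their gene.

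Kdm6a, the X-linked demethylase of histone H3 lysine 27 also called UTX, gave 1499.7 in null against 459.2 in wild type, a 3.27-fold difference. Its second measured probe set gave 793.2 in null and 636.4 in wild type, a log2 ratio of 0.32. Both lay above 0, yet they differed by 1.39, the widest range within a member gene. Without probe sets ending in _x_at, _s_at or _a_at, the gene's log2 ratio was 0.32 and no longer 2-fold. Kdm6b (JMJD3), which removes the same mark, was 2.17-fold higher at 1056.9 in null against 487.5 in wild type. A second Kdm6b probe set gave 367.3 in null against 309.4 in wild type, under the brightest Bacillus control probe sets (422.4 in null, 316.5 in wild type), which read RNA that liver does not hold. The probe set with 2 symbols, one of which is that of this gene, gave 2068.6 in null and 1531.1 in wild type.

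Kdm7a, a demethylase of H3 lysines 9 and 27, gave 2192.4 in null against 1001.3 in wild type and was 2.19-fold higher. That value rested on 1 probe set, since the next gave 1116.7 in null against 1214.4 in wild type and the dimmest of the 3 above both floors gave 655.1 in null against 615.2 in wild type. With the median over probe sets its log2 ratio was 0.09. Kdm4a, which acts on H3 lysines 9 and 36, gave 703.1 in null against 329.8 in wild type, 2.13-fold higher, from its single probe set above the floors. The wild-type signal of Kdm4a was just above the brightest Bacillus control of that array.

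A second tier of demethylases lay between 1.5-fold and 2-fold higher in null. Kdm5a, an H3 lysine 4 demethylase, gave 1145.6 in null against 669.9 in wild type (1.71-fold), and its 5 other probe sets were each under at least 1 floor. Kdm3a, an H3 lysine 9 demethylase, gave 1446.5 in null against 860.7 in wild type (1.68-fold). The 2 amine oxidase demethylases, which use flavin rather than iron and 2-oxoglutarate, were also in this tier. Kdm1b gave 2006.0 in null against 1242.3 in wild type (1.61-fold), and Kdm1a (LSD1) gave 1860.3 against 1194.9 (1.56-fold). The second Kdm1a probe set, with 616.1 in null and 409.5 in wild type, differed from the first by 0.05 on the log2 scale, the narrowest range among the members. Kdm5b (1.49-fold), Kdm4c (1.44-fold) and Kdm3b (1.19-fold) were higher by less.

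The Kdm genes below 0 were Kdm2b, Kdm2a, Kdm5c and Kdm4b. Kdm2b, a CpG-binding partner of a Polycomb complex, gave 3716.7 in null against 5524.1 in wild type (log2 ratio -0.57), and its other probe set had -0.17. Kdm2a had a log2 ratio of -0.36 at its representative probe set and 0.05 and 0.31 at 2 others. Kdm5c, an X-linked H3 lysine 4 demethylase, gave 783.9 in null against 970.9 in wild type, and a second probe set gave 311.2 against 643.8, a log2 ratio of -1.05. Its Y-linked relative Kdm5d lay under the floor in null (238.1) and at 510.2 in wild type, at least 1.89-fold lower, while another Kdm5d probe set gave 377.3 in null and 66.7 in wild type. Kdm4d was at least 1.48-fold lower (38.7 in null against 398.6 in wild type). Kdm8 was above the floor in null only, at 300.2 against 213.3, and these bounds follow from which array passed the floor.

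**Figure D2:**
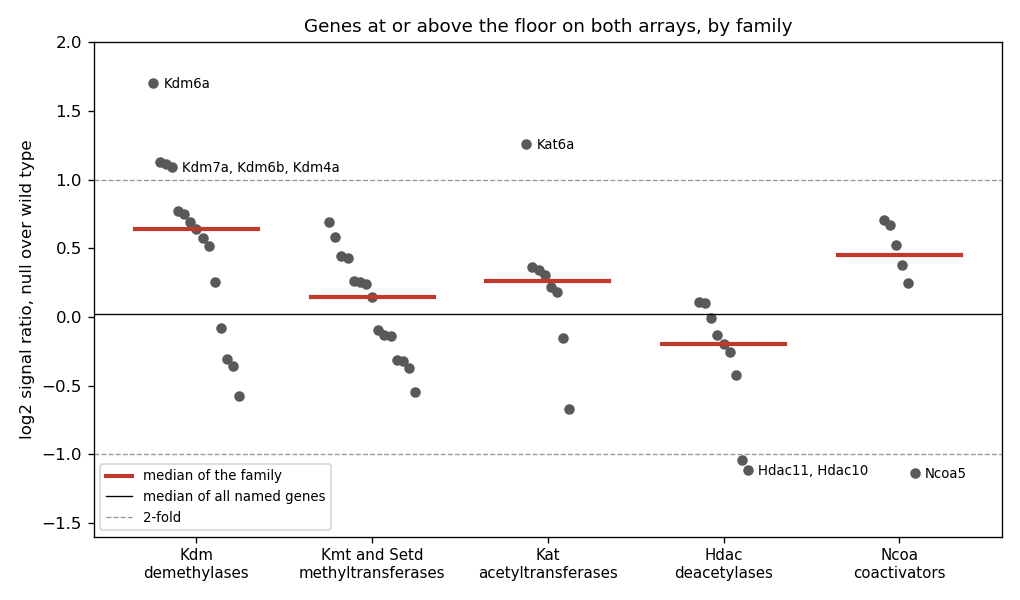
Log2 signal ratio, null over wild type, of the 53 genes at or above the floor on both arrays, 1 point per gene, with the family median (red bar), the median of all named genes (black line, 0.02) and 2-fold lines (dashed). The Kdm bar lies at 0.64 and the Hdac bar at -0.19, and 8 genes lie outside the 2-fold lines.

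Deacetylases leaned the other way. Of the 9 Hdac genes on both arrays, 7 had a log2 ratio below 0, where 47.8% of all named genes did, and 2 (22.2%) were at least 2-fold lower in null, beside 3.61% of all named genes. Hdac10, a class IIb enzyme known as a polyamine deacetylase, gave 575.7 in null against 1244.1 in wild type, 2.16-fold lower. Its other probe set was far under the floor on both arrays, so the value stands on 1 probe set. Hdac11, the class IV enzyme, known to remove long fatty acyl groups from lysine, gave 1278.4 in null against 2627.8 in wild type, 2.06-fold lower. Another Hdac11 probe set pointed the opposite way, with 882.7 in null against 709.9 in wild type, and without probe sets ending in _x_at, _s_at or _a_at the gene's log2 ratio was 0.31.

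The class I deacetylases Hdac1, Hdac2 and Hdac3, catalytic subunits of large nuclear corepressor complexes, had log2 ratios between -0.26 and 0.11. Hdac1 gave 1997.5 in null and 1850.5 in wild type, and Hdac2 gave 1647.4 and 1535.1. A second measured Hdac2 probe set had the opposite sign, with 522.5 in null and 627.3 in wild type. Hdac3, the enzyme of the nuclear receptor corepressor complex, gave 2566.1 in null and 3067.6 in wild type, a log2 ratio of -0.26. The class IIa enzymes, which shuttle between cytoplasm and nucleus, had log2 ratios of -0.13 (Hdac5), -0.19 (Hdac7) and -0.42 (Hdac4). Further probe sets of Hdac7 (259.6 in null, 555.8 in wild type) and Hdac4 (103.1 in null, 602.6 in wild type) were above the floor in wild type only. Hdac6, the class IIb tubulin deacetylase, gave 889.5 in null and 892.0 in wild type. Hdac8, also of class I, and Hdac9 were under the floor on both arrays. Without the pair at 2-fold, the remaining 7 lay between -0.42 and 0.11, and 1 array per genotype cannot show whether these differ from 0.

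Acetyltransferases held 1 gene at least 2-fold higher (12.5%), and 6 of 8 (75%) had a log2 ratio above 0. Of all named genes on both arrays, 2.24% were at least 2-fold higher and 52.2% above 0. Kat6a (MOZ), an H3 acetyltransferase of the MYST group, gave 1914.7 in null against 798.5 in wild type, 2.40-fold higher. Of its other probe sets, one gave 296.8 in null and 25.7 in wild type, and the last was under both floors. The paralog Kat6b gave 651.7 in null and 559.1 in wild type, a log2 ratio of 0.22. Kat14, a subunit of the ATAC complex, was the lowest of the family, at 1005.0 in null against 1599.4 in wild type (1.59-fold lower), but a second probe set above the floors gave 1136.1 against 1044.5.

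Kat5 (TIP60) was higher at both probe sets, with 915.5 in null against 712.5 in wild type and 1014.7 against 533.9, log2 ratios of 0.36 and 0.93. Kat2a (GCN5) and Kat2b (PCAF), paralogs of the SAGA and ATAC complexes, gave log2 ratios of 0.34 and -0.15 at their representative probe sets. For Kat2b those signals were 10274.8 in null and 11433.2 in wild type, and its 2 other probe sets stood on the other side, at 0.29 and 0.30. A second measured Kat2a probe set had 0.08. Another Kat2a probe set was above the floor in wild type only, at 217.2 in null and 404.0 in wild type. Kat8, which acetylates H4 lysine 16, had a log2 ratio of 0.30 and Kat7 one of 0.18, against -0.37 at a second Kat7 probe set.

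At their representative probe sets, methyltransferases spread around 0, with 8 genes (53.3%) above, 7 below and 0 of 15 at least 2-fold apart. Over the 27 measured Kmt and Setd probe sets, 18 were above 0 and 9 below, with a median of 0.24. For all members these were 57 and 29 of 86, with a median of 0.25. Of all named genes on both arrays, 52.2% were above 0, 2.24% at least 2-fold higher and 3.61% at least 2-fold lower. Setd7, an H3 lysine 4 monomethyltransferase that also modifies other proteins, was the sole one past 1.5-fold, at 920.9 in null against 571.0 in wild type (1.61-fold). In the Kmt2 group, whose members methylate H3 lysine 4 except for the inactive Kmt2e, 3 genes were above 0 and 2 below. Kmt2e gave 1745.7 in null against 1281.4 in wild type, and all 4 of its measured probe sets had log2 ratios between 0.45 and 0.95. Kmt2c was above 0 at 3 of 3 probe sets above both floors (0.24 to 0.75) and gave 90.0 in null against 465.1 in wild type at another. Kmt2a had 0.27, while Kmt2d (-0.13) and Kmt2b (-0.55) were below.

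Kdm6a and Ncoa6 are subunits of the complexes built on Kmt2c and Kmt2d, so these 4 genes can be set side by side. At the representative probe sets their log2 ratios were 1.71 for Kdm6a, 0.71 for Ncoa6, 0.24 for Kmt2c and -0.13 for Kmt2d. The second measured Kdm6a probe set had 0.32. Paxip1, another subunit of these complexes, gave 1173.8 in null and 1448.9 in wild type (-0.30). Other Paxip1 probe sets gave 343.2 against 294.5 (0.22) and, above the floor in wild type only, 148.8 against 374.2 and 113.2 against 380.5. As deposited, the representative probe sets of the subunits lay on both sides of 0.

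Among the H4 lysine 20 methyltransferases, Kmt5b had a log2 ratio of 0.58, Kmt5c -0.31 and Kmt5a -0.37. The 4 measured Kmt5b probe sets ran from -0.11 to 0.80. A second measured Kmt5a probe set had 0.02, with 947.5 in null and 934.9 in wild type. Setd1a and Setd1b, catalytic subunits of H3 lysine 4 complexes, had 0.15 and 0.26. Setd2, which trimethylates H3 lysine 36, gave 2055.7 in null and 2190.5 in wild type. Setd3, whose known substrate is an actin histidine and not a histone, gave 5872.6 in null against 4351.0 in wild type (0.43). Setd5 was below 0 at both measured probe sets (-0.32 and -0.58), and those of Setd6 differed in sign (-0.14 and 0.58). Setd4 lay under the floor in null (66.6) and at 744.4 in wild type, at least 2.76-fold lower. Of all genes above the floor in wild type only, 18.2% had such a bound of 2-fold or more, and the 2 other Setd4 probe sets were under both floors.

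Coactivators were above 0 for 5 of the 6 measured genes (83.3%), where 52.2% of all named genes were. The p160 coactivators, which bind the ligand-bound face of nuclear receptors, had log2 ratios of 0.67 (Ncoa2), 0.38 (Ncoa1) and 0.25 (Ncoa3). Ncoa2 gave 4567.7 in null against 2876.5 in wild type, 1.59-fold higher, and its second probe set gave 1029.8 against 732.9. Another Ncoa2 probe set was above the floor in wild type only, at 151.6 in null and 571.7 in wild type. Ncoa1 gave 1202.8 in null and 923.4 in wild type at one probe set and 960.0 and 1081.9 at another, so its direction was not settled. Ncoa3 was above 0 at both probe sets (0.25 and 0.60).

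Ncoa6, a coactivator scaffold, gave 1793.6 in null against 1096.8 in wild type, 1.63-fold higher from a single probe set. Ncoa4, also known as the cargo receptor that delivers ferritin to lysosomes, gave 17989.4 in null against 12518.7 in wild type (0.52), and 8848.7 against 7081.4 at its other probe set (0.32). Ncoa5 stood apart from the family, at 546.6 in null against 1201.9 in wild type, 2.20-fold lower from its single probe set. Ncoa7 was under the floor on both arrays.

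Probe sets of one gene could be compared for 25 members with at least 2 above both floors. For 14 of these (56%) all ratios had 1 sign, 11 above 0 and 3 below, where 48.9% of the 3917 comparable named genes had 1 sign. Counted by probe set, 5 of the 86 member probe sets above both floors were at least 2-fold higher in null and 4 at least 2-fold lower, where 2.46% and 3.3% of all such named probe sets were. The pooled SD of log2 ratios between probe sets of a gene was 0.43 for the members and 0.42 for all named genes. This scatter comes from 1 pair of arrays and holds no spread among mice or pools. The agreement differed by family, with 5 of 7 Kdm genes, 4 of 7 Kmt and Setd genes, 2 of 5 Kat genes, 0 of 2 Hdac genes and 3 of 4 Ncoa genes of 1 sign. Kdm1a, Kmt2e, Kmt2c, Kat5, Ncoa2, Ncoa3 and Ncoa4 were among those higher in null at all their measured probe sets. Of the 8 genes at least 2-fold apart, Kdm6a and Kdm6b had a second measured probe set of the same sign, Kdm7a and Hdac11 had one of opposite sign, and Kdm4a, Kat6a, Hdac10 and Ncoa5 had 1 measured probe set. In 0 of the 8 genes did a second measured probe set reach 2-fold.

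**Figure D3:**
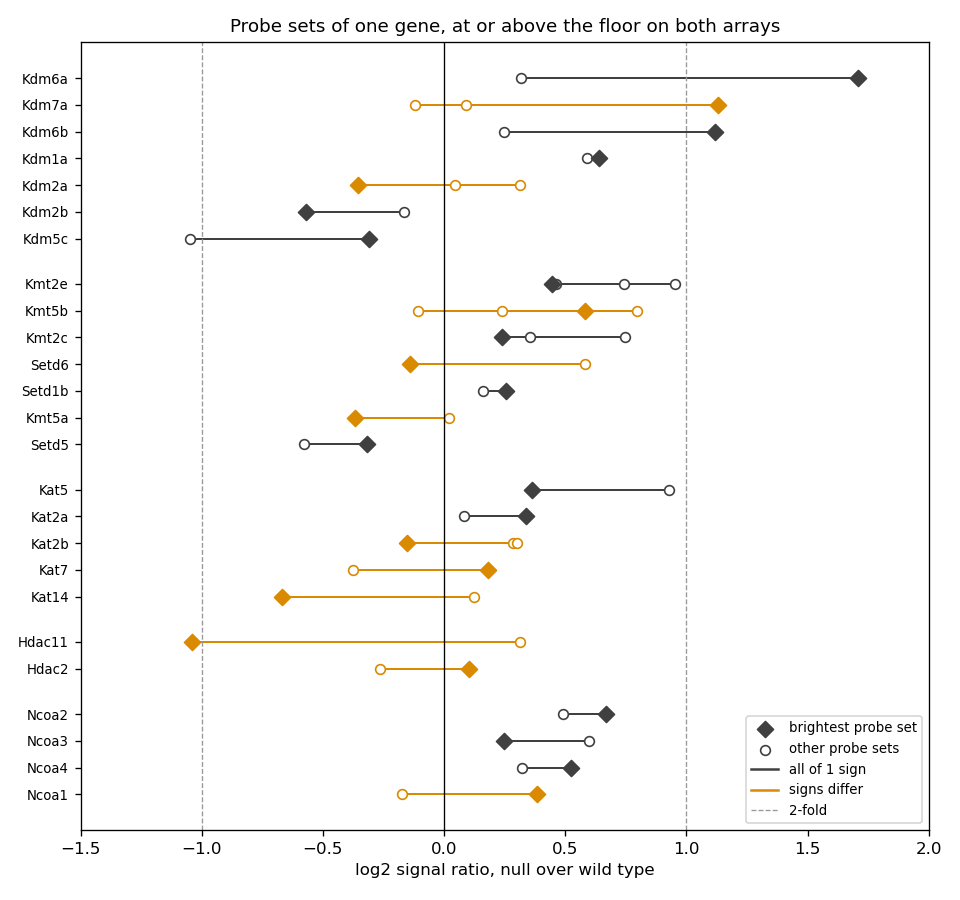
Log2 signal ratio, null over wild type, of every probe set at or above both floors for the 25 genes with at least 2, with the representative probe set as a filled diamond and the others as open circles. Signs agree in 14 genes (grey) and differ in 11 (orange), and Kdm6a has the widest range, 1.39.

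Of the genes at least 2-fold apart, promoters are shown for Kdm6a, Kdm4a, Kdm7a, Hdac11 and Ncoa5. Those of Kat6a, Kdm6b and Hdac10 are not shown here. Each run is the 250 bases before the transcription start, 5′ to 3′ on the gene's strand, from RefSeq on GRCm38.p6, with CpG dinucleotides in capitals. The Kdm6a window lies at chrX:18162325-18162574 (plus strand), Kdm4a at chr4:118180044-118180293 (minus), Kdm7a at chr6:39206774-39207023 (minus), Hdac11 at chr6:91156565-91156814 (plus) and Ncoa5 at chr2:165034780-165035029 (minus).
Kdm6a: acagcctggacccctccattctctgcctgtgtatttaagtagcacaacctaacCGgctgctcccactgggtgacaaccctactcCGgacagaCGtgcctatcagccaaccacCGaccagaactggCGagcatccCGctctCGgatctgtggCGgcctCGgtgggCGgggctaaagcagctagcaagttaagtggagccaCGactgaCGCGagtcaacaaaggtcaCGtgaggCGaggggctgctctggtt
Kdm4a: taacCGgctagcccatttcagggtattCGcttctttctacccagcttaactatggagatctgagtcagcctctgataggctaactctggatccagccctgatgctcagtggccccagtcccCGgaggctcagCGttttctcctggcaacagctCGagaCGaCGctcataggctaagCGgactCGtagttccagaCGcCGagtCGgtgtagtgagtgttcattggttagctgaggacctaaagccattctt
Kdm7a: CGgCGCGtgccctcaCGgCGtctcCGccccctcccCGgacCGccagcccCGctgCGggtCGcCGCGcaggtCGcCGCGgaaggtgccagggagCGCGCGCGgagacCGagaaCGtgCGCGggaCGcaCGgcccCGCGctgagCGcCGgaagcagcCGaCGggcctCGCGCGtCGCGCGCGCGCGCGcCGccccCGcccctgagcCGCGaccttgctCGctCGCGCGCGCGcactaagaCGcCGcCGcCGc
Hdac11: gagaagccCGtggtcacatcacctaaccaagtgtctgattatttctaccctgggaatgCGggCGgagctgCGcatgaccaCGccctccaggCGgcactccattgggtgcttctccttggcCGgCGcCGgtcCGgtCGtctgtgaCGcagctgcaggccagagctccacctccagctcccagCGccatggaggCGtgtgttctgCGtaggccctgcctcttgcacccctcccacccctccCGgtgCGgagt
Ncoa5: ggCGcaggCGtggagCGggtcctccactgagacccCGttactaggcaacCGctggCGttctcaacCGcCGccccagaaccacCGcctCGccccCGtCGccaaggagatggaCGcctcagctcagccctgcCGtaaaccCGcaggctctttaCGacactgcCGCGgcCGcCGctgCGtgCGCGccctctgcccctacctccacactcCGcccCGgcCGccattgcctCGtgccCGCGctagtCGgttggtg
These windows held 15 CpG for Kdm6a, 12 for Kdm4a and 56 for Kdm7a, and 17 for Hdac11 and 30 for Ncoa5, so higher and lower genes overlapped. The median was 17 over 67 promoters of 46 member genes and 6 over all 32851 promoters in the RefSeq table. The letters AGGTCA, the half-site of many nuclear receptors, were searched on both strands. Among the 5 they occurred in the Kdm6a window, starting 31 bases before the transcription start and overlapping the E-box letters CACGTG, which start 27 bases before it. AGGTCA was present in 13.4% of the member windows and 14% of all windows, and CACGTG in 4.48% of the member windows and 6.02% of all. A match of letters describes the sequence and shows no binding.

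Other chromatin and coregulator genes, which carry other symbols, gave a wider view of the same machinery. Of 79 such genes named here, 74 were on both arrays, 1 was at least 2-fold higher and 2 at least 2-fold lower, with a median log2 ratio of 0.01. Of all named genes, 2.24% were higher and 3.61% lower by as much. Under the floor in null, Sirt4 (137.1 against 1175.2 in wild type) was at least 4.36-fold lower and Tada3 (221.2 against 558.3) at least 2.07-fold lower, a bound of a kind that 18.2% of genes above the floor in wild type only had. Writers had a median of 0.23 over 29 genes, erasers -0.09 over 11 and subunits of coregulator complexes -0.04 over 34. Gtf3c4, a transcription factor subunit with acetyltransferase activity, gave 1518.5 in null against 372.9 in wild type, and its second probe set gave 107.0 against 303.0. Smyd3, a lysine methyltransferase, was 2.13-fold lower (307.0 in null against 653.8 in wild type). Med24, a Mediator subunit, was 2.52-fold lower (349.5 against 879.9). The null signals of Smyd3 and Med24 lay under the brightest Bacillus control of that array (422.4). With the floor at the brightest Bacillus controls, 1 of the listed genes stayed at least 2-fold apart. In the corepressor complex that holds Hdac3, Tbl1x had a log2 ratio of 0.13, Tbl1xr1 -0.32 and Gps2 -0.74. Other measured probe sets had 0.26 and 0.04 for Tbl1xr1, and 0.18 and -0.06 for Tbl1x. Above the floor in wild type only, Tbl1xr1 also gave 258.2 in null against 322.7 in wild type, and 130.9 against 564.9. At their representative probe sets, the demethylase relatives outside the Kdm symbols lay on both sides of 0. Jmjd1c was at 0.75, Hr at 0.57, Jmjd6 at -0.05, Phf8 at -0.12, the Y-linked Kdm6a paralog Uty at -0.26, and Phf2 at -0.75. Further probe sets of some pointed the other way. Jmjd1c had 0.49 and -0.68 at others above both floors. Another Hr probe set gave 30.4 in null against 471.8 in wild type. For Phf2, others gave 470.2 against 99.2 and 80.9 against 298.1. These genes were named after their values were seen.

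Median centring and scaling to the hybridization controls add 1 constant to all log2 ratios, so they cannot change the order of the families. Under quantile normalization and loess, which can, the order was as deposited. With the floor at the 75th percentile the methyltransferase median (0.24) was above that of the acetyltransferases (0.18). With the arrays scaled to the hybridization controls, the medians were 0.26 for Kdm, 0.07 for Ncoa, -0.12 for Kat, -0.23 for Kmt and Setd, and -0.57 for Hdac, beside -0.36 for all named genes. Under that scaling 1 member, Kdm6a, was at least 2-fold higher, and 4 were at least 2-fold lower, namely Hdac10, Hdac11, Ncoa5 and Kat14. Of all named genes on both arrays, 0.646% were then at least 2-fold higher and 10.4% lower. Relative to the median of all named genes as deposited, the Kdm median was higher by 0.62 and the Hdac median differed by -0.22.

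**Figure D4:**
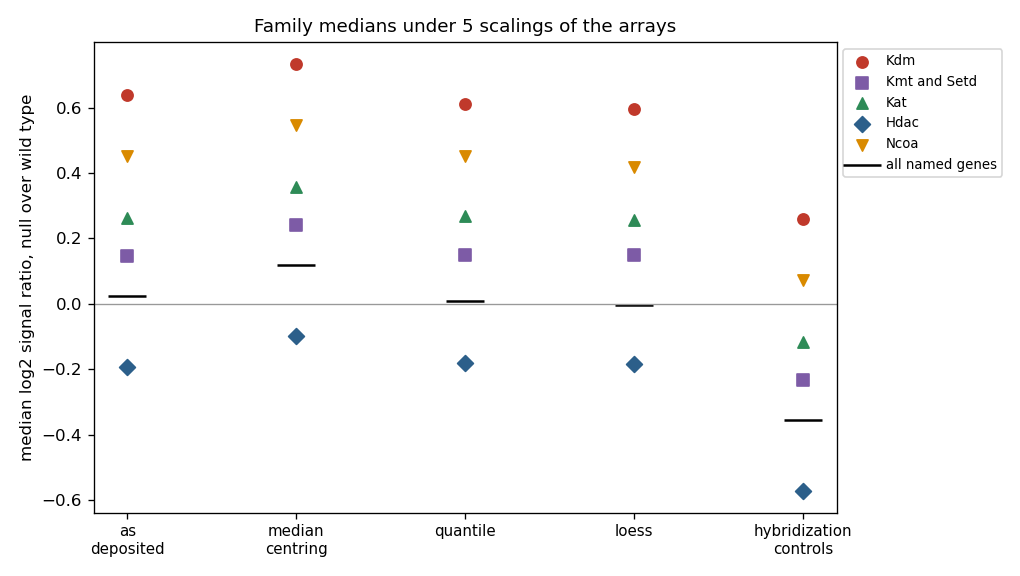
Median log2 signal ratio, null over wild type, of each family (coloured symbols) and of all named genes (black bars) under 5 scalings of the 2 arrays. Median centring and the hybridization controls shift all ratios alike, and the scaling to these controls takes the median of all named genes to -0.36.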

How the data were processed

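Liver RNA of fenofibrate-fed null and wild-type mice was measured on 1 array per genotype. Per the labels, the authors made the deposited signal intensities with the Affymetrix statistical algorithm, which set each array to a target of 1000. After trimming 2% of probe sets at either end, both arrays had a mean of 1000.0. One settings text serves both arrays and was not used further. Detection calls were not used here, and the software version is not stated in the labels.

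Gene symbols came from the platform annotation of 2016. Of 45101 probe sets, 64 were controls, 34945 had 1 symbol, 932 had several and 9160 none. All 60 member identifiers were found in the RefSeq table of GRCm38.p6 and 0 symbols changed. Of the member probe sets, 86 were at or above the floor on both arrays, 8 in null only, 12 in wild type only and 47 on neither.

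Log2 ratios of null over wild type were taken as deposited, after raising signals to the floor, with Python 3.11.15, pandas 2.3.3 and statsmodels 0.14.6. A signal under the floor on 1 array gives a bound. A gene counted as apart from 2-fold on. The procedure was tested on simulated data, with changes well above 2-fold planted in genes well above the floor. Changes near 2-fold, and changes in genes near the floor, were not simulated. The number of arrays limits the precision. Members, lists and thresholds were chosen with earlier results of these data known. Named in the text by rule were members at least 1.5-fold apart, bounds of that size, the 3 genes of each family with the highest mean signal, Ncoa1, Ncoa2, Ncoa3 and Hdac3, the 6 widest probe set ranges and listed genes at least 2-fold apart. Other members were named to account for all. Of the marker and list genes, those without a probe set of 1 symbol were left out. Alternatives were 4 scalings, 4 floors, 2 ways to treat the probe sets of a gene and 2 thresholds.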

Additional observations from a re-analysis of the deposited data

How the results depend on the processing

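Where another setting moved a count by more than 1.5 times, the cause was not tested unless the setting itself gives fewer or more genes. As deposited, 5 member genes were at least 2-fold higher in null, 3 were lower, 14 had probe sets of 1 sign, and 3 of the other chromatin and coregulator genes were at least 2-fold apart. Scaling to the hybridization controls left 1 higher member and gave 12 other genes apart, where 0.646% of all named genes were higher and 10.4% lower. With the floor at the 75th percentile, which leaves 31 members, 1 was higher (Kdm7a) and 1 lower (Hdac11). At the median floor both genes had a measured probe set of opposite sign. With the 75th percentile floor, 5 members had probe sets of 1 sign and 0 other genes were apart. Of all named genes, 1.26% were then higher and 2.05% lower. With the floor at the 25th percentile 5 of 58 members were lower and 6 other genes apart, beside 9.38% of all named genes lower and 6.2% higher, and with no floor these were 7 and 6. With no floor, 2-fold was passed by 12% of all named genes upwards and by 17% downwards. The floor at the brightest Bacillus controls kept all 5 higher and 3 lower members and left 1 other gene apart. Of all named genes, 2.31% were then higher and 2.35% lower. With the median over probe sets 3 members were higher, namely Kat6a, Kdm4a and Kdm6a, beside 1.73% of all named genes. At 1.5-fold 12 members were higher and 18 other genes apart, where 10.2% of all named genes were higher and 11.5% lower. At 3-fold 1 member was higher, 0 were lower and 1 other gene was apart, where 0.318% of all named genes were higher and 0.885% lower. Without probe sets ending in _x_at, _s_at or _a_at, 4 members were higher and 2 lower, where 2.38% and 3.53% of all named genes were. The log2 ratio of Kdm6a was then 0.32 and that of Hdac11 turned to 0.31, so both left the counts. Kat2b (0.29), Ncoa1 (-0.17) and Setd3 (-0.14, from a probe set under the floor in null) also turned. Under the scaling to hybridization controls the median over all members, 0.24 as deposited, was -0.14. The 5 higher members were the same genes under median centring, quantile normalization and loess, and so were the 3 lower ones under quantile normalization and loess, while median centring left Hdac10 and Ncoa5. No paired analysis was possible because each genotype has 1 array. Signals near the floor limit what can be said of Kdm4b, Kdm8, Hdac4 and the second probe sets of several genes.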
